A study of Monopterus albus with 2 samples.

Results

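Broad domains of H2bK120ub that were called in both gonads of *Monopterus albus* are described here. A common broad domain was a testis peak of at least 1500 bp that overlapped exactly 1 ovary peak, when that ovary peak also measured at least 1500 bp and the overlap covered at least 50% of both lengths. Peaks are intervals that the peak caller found enriched in the immunoprecipitated DNA. There were 4870 such domains among 20780 testis peaks of at least 1500 bp, called long testis peaks below, and among 287444 testis peaks in all. The members were chosen by their peak lengths in both lists and by the overlap, so their numbers, lengths and edges are given as a description. Spacing, scores and the testis peaks in the flanks were not part of the choice, but the ovary partner often reaches past the testis edge and then counts in the ovary flanks. Flanks can also hold other common domains, which were chosen for their overlap. The length minimum and the need for a separate ovary peak also limit the shortest distances between members.

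Monoubiquitination of H2b at K120 is placed on nucleosomes by the ubiquitin ligase RNF20/RNF40 together with RAD6-type enzymes, largely while RNA polymerase II transcribes, and it is removed by deubiquitinases such as USP22 of the SAGA complex. In mammals the mark lies mainly over the bodies of transcribed genes and is linked to methylation of H3K4 and H3K79. A broad run of the mark is therefore usually read as a stretch of chromatin that was being transcribed in part of the cells of a tissue.

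The swamp eel starts life as a female and becomes a male through an intersex stage, and the study compared the mark between the ends of that change. Chromatin of 1 untreated adult testis sample and 1 untreated adult ovary sample was immunoprecipitated with the same rabbit antibody to H2b ubiquitinated at lysine 120. Each gonad is a mixture of germ cells and somatic cells, so a domain called in both lists need not come from the same cell type. The ovary list held 295577 peaks, of which 17684 measured at least 1500 bp. According to the paper, ovary yielded hardly any peptides with this modification, and its Western blot gave the same picture. Antibody staining did not show the mark in ovary sections. The number of ovary peaks is thus not read as an amount of the mark. Whether calls shared by both lists come from background common to both libraries was not tested. The lists give positions and 1 score per peak without reads, so the depth is unknown. As each tissue had 1 sample, no comparison below has a replicate check or a p-value. SDs are over domains, intervals are 95% Wilson intervals, and both cover the spread or the counting of domains and not the error between animals. Neighboring domains are not independent. No genome sequence or gene positions on these scaffolds were used here, so the domains are named by scaffold and position, counted from 1, and no gene is assigned to them.

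The common domains were 23.4% of the long testis peaks and their ovary partners were 27.5% of the long ovary peaks. These shares follow from the rule and are read as its yield. Of the 15910 other long testis peaks, 11865 overlapped several ovary peaks, 3166 overlapped exactly 1 ovary peak and 879 overlapped none. Most of those with exactly 1 ovary peak failed on length, as the ovary peak was shorter than 1500 bp in 2723 of them, and 443 failed on the overlap. In 2344 of those with several ovary peaks, 1 of the ovary peaks would have met the length and the overlap. The common domains covered 10.8 Mb in testis and 12.0 Mb in ovary, and 9.99 Mb of this was covered in both lists. They thus made up 6.86% of all bases covered by testis peaks and 8.10% of all bases covered by ovary peaks.

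The share of common domains was highest for testis peaks of 2000 to under 3000 bp and lower on both sides of these lengths. It was 21.9% of the 10191 testis peaks of 1500 to under 2000 bp, 26.7% of the 5210 of 2000 to under 2500 bp and 25.6% of the 2726 of 2500 to under 3000 bp. It was 21.5% of the 2181 peaks of 3000 to under 4000 bp and 16.3% of the 472 of 4000 bp and over. Longer testis peaks were more often met by several ovary peaks, with 48.7% in the shortest class and 80.5% in the longest. Seen from ovary, the share of long peaks that were partners was 17.6% from 1500 to under 2000 bp and 52.1% from 4000 bp. The rule treats the lists unequally, since it allows 1 ovary peak per testis peak but several testis peaks per ovary peak.

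At the edge of the rule, a testis peak of 1500 bp on scaffold1.1 was a member with an ovary peak of 1839 bp, while a testis peak of 1499 bp on scaffold105.1 with an ovary peak of 1624 bp was left out. An ovary peak of 1500 bp on scaffold94.1 was accepted and one of 1499 bp on scaffold143.1 was not. For the overlap, a pair on scaffold153.1 shared 50% of the ovary length and a pair on scaffold172.1 shared 49.9%.

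Testis lengths of the common domains ran from 1500 to 5647 bp, with a median of 2054 bp and quartiles of 1757 and 2511 bp. Ovary lengths ran from 1500 to 6366 bp, with a median of 2294 bp and quartiles of 1883 and 2925 bp. The ovary peak was the longer one in 3129 domains, or 64.3% (interval 62.9% to 65.6%), the testis peak in 1735, and 6 pairs had equal lengths. The median ratio of ovary to testis length was 1.05. Lengths of both tissues had a Spearman rho of 0.59 over the 4870 domains. All of these come from the same 2 libraries and share the same cut-offs. The overlap rule also limits the ratio of ovary to testis length, which ran from 0.504 to 2 among the members. A positive rho is thus set in part by the choice of members, and no relation between the tissues is read from it.

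**Figure D1:**
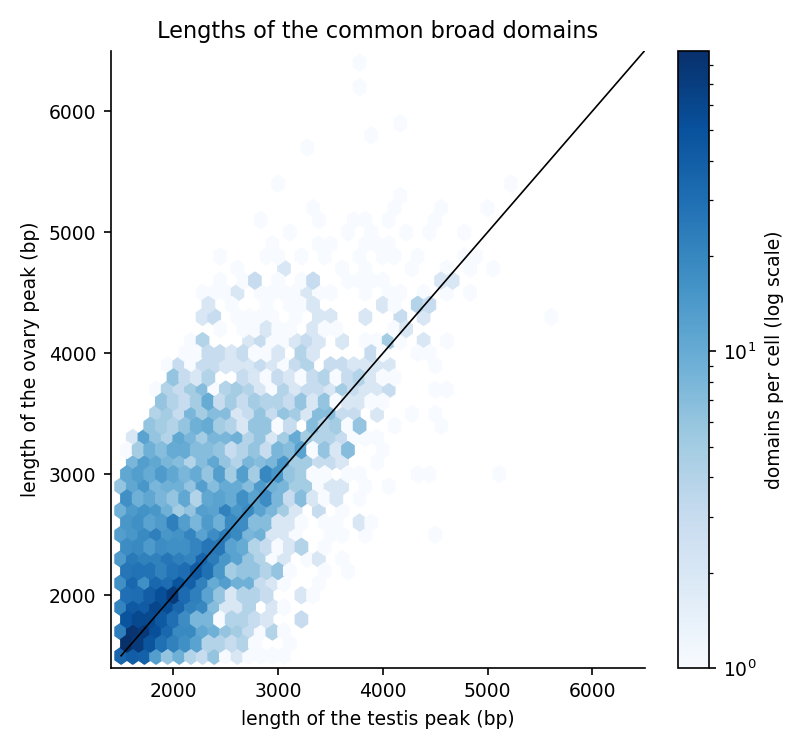
Length of the testis peak (x axis, bp) and of the ovary peak (y axis, bp) for the 4870 common broad domains, with the number of domains per cell on a log color scale and a line of equal length. Domains crowd along the line, and a second field with longer ovary peaks lies above it, up to the ratio of 2 that the overlap rule allows.

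Length differences varied with the number of testis peaks that the ovary peak overlapped, a split that is not independent of the lengths, since a longer ovary peak reaches a further testis peak more easily. In 3444 domains the ovary peak overlapped no testis peak other than the member, and there the median lengths were 2095 bp in testis and 2097 bp in ovary. The ovary peak was longer in 1773 of these, or 51.5% (interval 49.8% to 53.1%). In the other 1426 domains the ovary peak overlapped at least 1 further testis peak, the ovary median was 2900 bp against 1972 bp in testis, and the ovary peak was longer in 1356, or 95.1%. Of the 1426, 1265 had 1 further testis peak, 156 had 2 and 5 had more. The further testis peaks measured 478 bp in the median, against 340 bp over all testis peaks, and lay 335 bp from the member in the median. Of these 1592 peaks, 120 (7.54%) measured at least 1500 bp, against 7.23% of all testis peaks. When several ovary peaks were allowed per testis peak, which adds testis peaks that face ovary peaks in pieces, the ovary peak was longer in 48.3% of 7214 domains. When ovary peaks were joined and filtered to the gap and length limits of the testis list, it was longer in 65.5%. The share of domains with a longer ovary peak thus moved with the form of the rule, and no general direction between the tissues is given.

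Edges of the domains lay close together in both lists. The testis and ovary edges differed by a median of 139 bp on the left and 147 bp on the right, and the midpoints by 165 bp. At least 1 edge agreed within 50 bp in 48.5% of the domains and within 100 bp in 65.1%. Both edges agreed within 100 bp in 930 domains (19.1%), within 250 bp in 1986 (40.8%) and within 500 bp in 3058 (62.8%). Identical positions occurred for 42 left and 33 right edges. The nearer edge of a domain differed by 54 bp in the median and the farther one by 335 bp. Ranking both edges of each domain by their offset sets the order of these values, so no asymmetry is read from them.

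**Figure D2:**
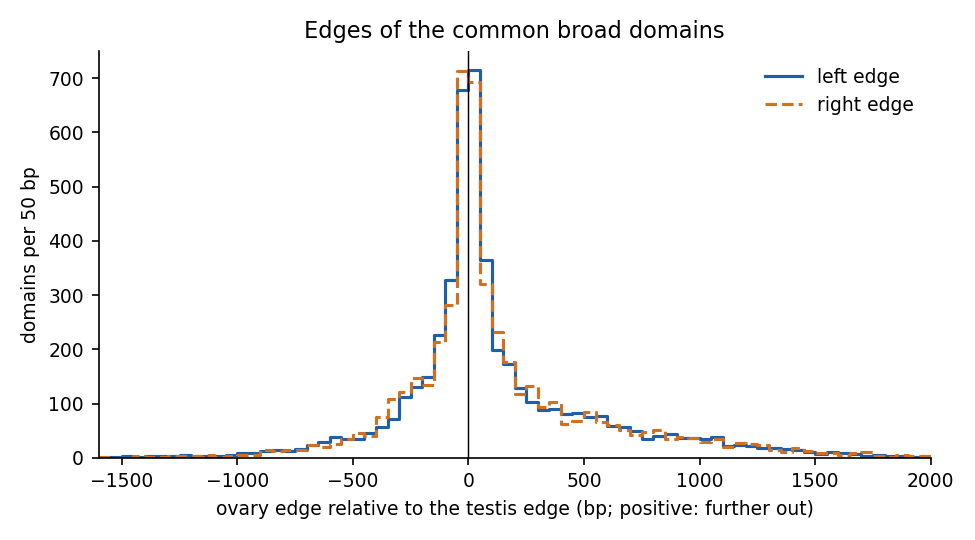
Position of the ovary edge relative to the testis edge (x axis, bp, positive when the ovary peak reaches further out) for left and right edges of the 4870 domains, as domains per 50 bp. Both edges have their maximum at the bins next to 0, with 678 and 715 domains on the left and 713 and 693 on the right, and a longer tail on the positive side.

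The ovary peak reached as far or further at both ends in 1481 domains (30.4%) and the testis peak in 792 (16.3%). In the remaining ones the ovary peak was displaced to the left in 1303 and to the right in 1294, so no side was preferred. In the 1426 domains with a further testis peak, the ovary peak has to pass a gap of at least 261 bp. There the testis peak cannot reach further at both ends, and both edges cannot agree within 250 bp, so the shares over all domains are partly set by this. Among the 3444 domains with a single peak in each list, the ovary peak reached as far or further at both ends in 830 and the testis peak in 792. Both edges agreed within 250 bp in 57.7% of these. The Jaccard index, which is the shared length over the joint length, had a median of 0.82 over all members and 0.88 over these 3444. It was at least 0.9 in 1524 of the 4870 domains. Domains of 3000 bp and over had a median index of 0.88 and those of 1500 to under 2000 bp of 0.79, while the farther edge differed by 358 and 319 bp in the median. The edges of longer domains were thus about as far apart in bp as those of shorter ones.

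Of the members, 433 measured at least 3000 bp in both tissues and 58 at least 4000 bp. Ranked by the shorter of both lengths, the first lay on scaffold38.1 from 1600619 to 1605854 in testis and from 1600622 to 1605972 in ovary, with lengths of 5236 and 5351 bp. The second, on scaffold267.1 from 1388637 to 1393660, was 5024 bp long in testis and 5183 bp in ovary. The third, on scaffold130.1 from 388655 to 393489, measured 4835 and 4812 bp. Each of these shared at least 96.9% of both lengths. The fourth lay on scaffold277.1 from 567707 to 572473, with 4767 bp in testis and 4952 bp in ovary. The fifth, on scaffold15.1 from 1111506 to 1116273, had 4768 and 4761 bp and edges that differed by 39 and 46 bp. Over the whole lists the median peak length was 340 bp in testis and 308 bp in ovary.

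The best agreement among members of at least 3000 bp was found on scaffold115.1 from 1127481 to 1130669. Its testis and ovary peaks both measured 3189 bp and were displaced by 2 bp, with a Jaccard index of 0.999. The next, on scaffold277.1 from 516769 to 519996, had edges that differed by 3 and 5 bp over 3228 bp. The third, on scaffold119.1 from 974050 to 977089, had edges that differed by 2 and 7 bp over 3040 bp. Scaffold277.1 thus held a member of both rankings.

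Flanks were measured outward from the edges of the testis peak in both lists, as the percentage of bases within peaks. Within 10 kb on both sides of a common domain, testis peaks covered 34.3% ± 10.01 (SD over 4870 domains) and ovary peaks 36.4% ± 9.92. For the other long testis peaks these shares were 34.8% ± 9.98 for testis peaks and 34.7% ± 12.5 for ovary peaks. Over all scaffolds up to their last peak, testis peaks covered 23.9% and ovary peaks 22.5%. More bases thus lay in peaks around long testis peaks of both kinds than over the scaffolds at large. Flanks of shorter peaks were not measured, so whether this is particular to long peaks was not tested. Left and right flanks were alike, with 34.1% and 34.5% in testis. Part of the ovary share belonged to the ovary partner itself where it ran past the testis edge. Measured from the edges of the ovary peak, ovary peaks covered 34.7% of the 10 kb flanks.

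The testis flanks of common domains and of other long testis peaks differed by 0.48 percentage points at 10 kb, and the sign of this difference turned with the width of the flank, the length of the peaks and the scores, so no direction is given. In ovary the flanks of common domains were covered 1.64 percentage points more at 10 kb, but the sign turned here too, with -0.35 points at 2 kb, -0.38 at 5 kb, -1.16 without long peaks and -0.23 for peaks of 3000 bp and over, so no direction is given either. Among the others, ovary peaks covered 15.8% of the flanks of testis peaks without an ovary peak and 32.6% of those with 1 ovary peak outside the rule. Those with several ovary peaks had 36.7%, close to the 36.4% of the common domains. Of the 879, 244 lay on scaffolds that had no ovary peak at all.

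Along the flanks, the covered share of the common domains first dipped and then passed through a maximum in both lists. Next to the domain, from 0 to 0.5 kb, testis peaks covered 11.1%, where the list leaves at least 261 bp between neighboring peaks. The testis share was 35.0% from 0.5 to 1 kb, had its minimum beyond 0.5 kb of 27.8% from 2.5 to 3 kb, reached 41.0% from 5 to 5.5 kb and was 33.4% at 29.5 to 30 kb. Ovary peaks covered 36.5% from 0 to 0.5 kb of these testis edges, where the ovary partner often runs past them. Beyond that they showed the same course, with 29.3% from 2.5 to 3 kb and 41.7% from 5.5 to 6 kb. Measured from the edges of the ovary peaks, the ovary share was 10.2% from 0 to 0.5 kb, had its minimum beyond that of 29.1% from 2 to 2.5 kb and was 42.5% at its maximum from 5 to 5.5 kb. The other long testis peaks had their minimum from 2.5 to 3 kb in both lists and their maximum from 5 to 5.5 kb. Their values were less far apart, with 31.6% and 38.9% in testis and 31.5% and 36.8% in ovary. Calls near a broad peak are not independent of it, as the peak caller also estimates background from the surroundings. The effect of the caller on this course was not tested.

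**Figure D3:**
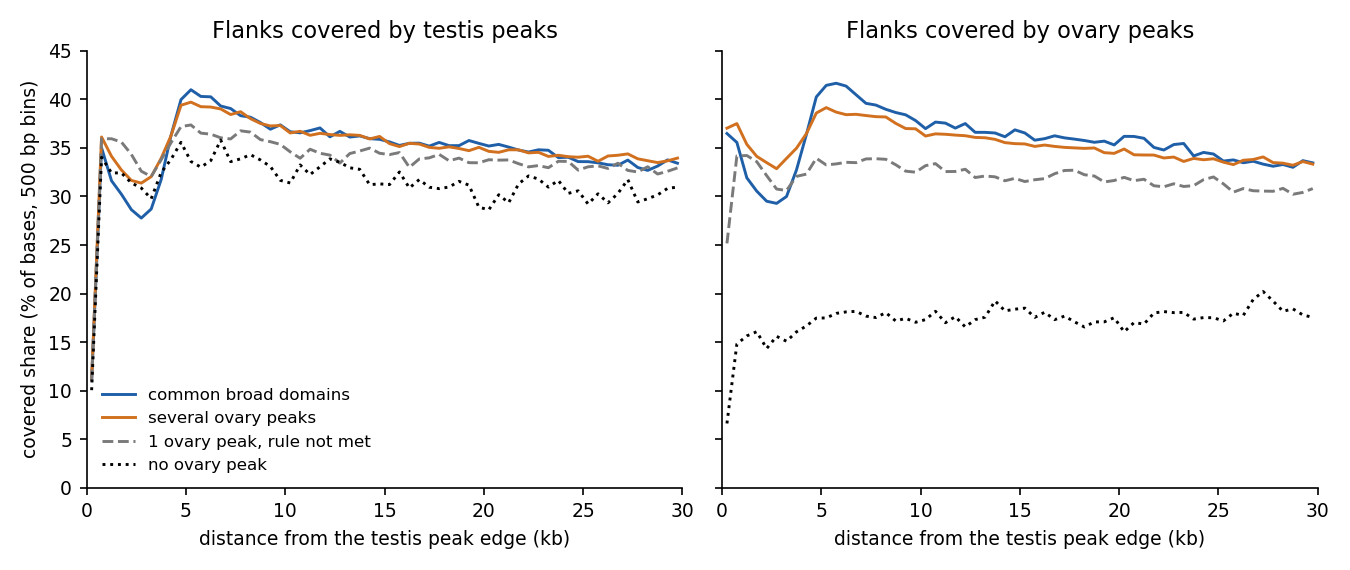
Share of bases covered by testis peaks (left) and ovary peaks (right) in bins of 500 bp against the distance from the testis peak edge (kb), for the common broad domains and for the other long testis peaks with several, 1 or no ovary peak. Beyond the first 0.5 kb, the line of the common domains has a minimum of 27.8% in testis and 29.3% in ovary from 2.5 to 3 kb and a maximum of 41.0% and 41.7% between 5 and 6 kb.

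To compare the depth of this course, a near band from 2 to 3.5 kb and a far band from 4.5 to 6 kb were used. They were placed after the profiles had been seen, so a far band above the near band follows from this choice. Common domains had 28.4% in the near band and 40.4% in the far band in testis, a difference of 12.0 percentage points, and 29.6% and 41.1% in ovary, a difference of 11.5. For the other long testis peaks the differences were 6.78 points in testis and 4.63 in ovary. The course was deeper around longer domains. Around the 547 common domains of 3000 bp and over, the near band was covered to 20.3% in testis and 23.0% in ovary and the far band to 40.5% and 41.9%. Around the 2231 of 1500 to under 2000 bp, the near band had 31.4% and 32.04% and the far band 40.4% and 41.3%. Common domains and other long testis peaks differed in the same direction within each length class, since the far band exceeded the near band by 20.2 points around common domains of 3000 bp and over and by 13.1 around other testis peaks of that length. The far band held similar shares in all length classes, and the classes differed in the near band.

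Seen from the midpoint of the domain, the minimum in testis lay in the bin from 3.5 kb over all members, and from 4, 3.5 and 3 kb in the classes of 1500 to under 2000, 2000 to under 3000 and 3000 bp and over. Broad peaks took part in the far band more than in the near band. Testis peaks of at least 1500 bp covered 7.55% of the near band and 16.0% of the far band of the common domains, and shorter testis peaks 20.8% and 24.4%. In ovary these shares were 6.95% and 14.9% for long peaks and 22.6% and 26.2% for shorter ones. The named members show how much single domains vary around these means. Of the 5 longest, those on scaffold38.1 and scaffold130.1 had no testis peak in the near band and 33.6% and 46.6% in the far band. The member on scaffold277.1 from 567707 went the other way, with 36.3% in the near band and 8.27% in the far band.

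The peak next to a common domain was usually shorter than 1500 bp. The gap to the next testis peak on either side had a median of 690 bp and quartiles of 368 and 1768 bp, against a median of 651 bp for the other long testis peaks. Of the gaps beside common domains, 22.1% exceeded 2000 bp, against 17.3% beside the others. Around common domains of 3000 bp and over, the median gap was 1174 bp and 36.0% exceeded 2000 bp, against 834 bp and 26.4% around other testis peaks of that length. The neighboring peak measured 469 bp in the median beside common domains and 442 bp beside the other long testis peaks. Of the neighbors, 10.7% and 9.05% were long peaks themselves, against 7.23% of all testis peaks.

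Of the bases covered in testis, a larger share was also covered in ovary beside common domains than over the whole lists. From 5 to 10 kb, 64.4% of the bases covered in testis were also covered in ovary, against 57.2% beside the other long testis peaks and 50.9% over the whole lists. From 20 to 50 kb these shares were 57.7% beside common domains and 54.6% beside the others. The share was also higher than that of the testis peaks with several ovary peaks, which had 59.8% from 5 to 10 kb and 56.3% from 20 to 50 kb. In the near part from 2 to 5 kb, common domains had 61.5% and the others 54.9%. A larger covered share in ovary also makes overlap more frequent, and beside common domains ovary peaks covered 39.8% from 5 to 10 kb against 36.1% beside the others. The flanks also hold other common domains, which the rule chose for their overlap. Another one lay within 10 kb for 28.8% of the domains, and 92.5% of the testis bases of common domains were covered in both lists. Part of the higher overlap is thus set by the rule. How much comes with these members or with the higher coverage was not tested.

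Common domains were spread along the scaffolds with a median gap of 47131 bp to the next one and quartiles of 15135 and 129356 bp. The nearest other common domain lay within 10 kb for 28.8% of them and within 50 kb for 69.9%, and 74 were the sole member on their scaffold. The nearest long testis peak of any kind was 5378 bp away in the median, against 5786 bp for the other long testis peaks, so common domains lay about as near to other long peaks as those did. Among pairs of common domains, distances between midpoints of 6 to 8 kb were more frequent than shorter ones. Short distances are limited by the rule, as each member is at least 1500 bp long and needs an ovary peak of its own. There were 116 pairs from 6 to 7 kb and 115 from 7 to 8 kb, against 54 from 2 to 3 kb. Pairs were fewest between these distances, with 43 from 3 to 4 kb and 45 from 4 to 5 kb. From 20 to 40 kb there were 47 to 79 pairs per kb. All long testis peaks also had fewer pairs from 3 to 4 kb, 747, than from 2 to 3 kb, 1045, or from 7 to 8 kb, 1385. How far the peak caller shapes these distances was not tested.

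As gaps depend on how many members there are, clustering was also read from the order of the long testis peaks alone. Of the long testis peaks that followed a common domain on the same scaffold, 27.0% were common domains themselves (interval 25.7% to 28.3%, 1270 of 4707), against 22.3% of those that followed another long testis peak (3443 of 15473). The difference was 4.73 percentage points at the next peak, 2.78 at the second, 2.53 at the third and 1.60 at the fourth. From the fifth to the twentieth it ran from -0.95 to 3.45, with its highest values of 3.45 at the seventh and 2.60 at the tenth. The first difference depended on the rule, as it was 2.14 points with a minimum length of 2000 bp in both lists and 7.25 when further ovary peaks could overlap. It was seen for each length of the first peak, with 4.93 points from 1500 to under 2000 bp, 4.46 from 2000 to under 3000 bp and 4.61 from 3000 bp. By distance, the share after a common domain was 24.6% at gaps under 2 kb, where it was 20.6% after another long peak. At gaps of 2 to 5 kb these shares were 32.02% and 25.3%, and at gaps of 50 kb and over 23.3% and 19.99%. Clustering of common domains among the long peaks was thus slight. On scaffolds with peaks in both lists the first difference was 4.45 points.

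**Figure D4:**
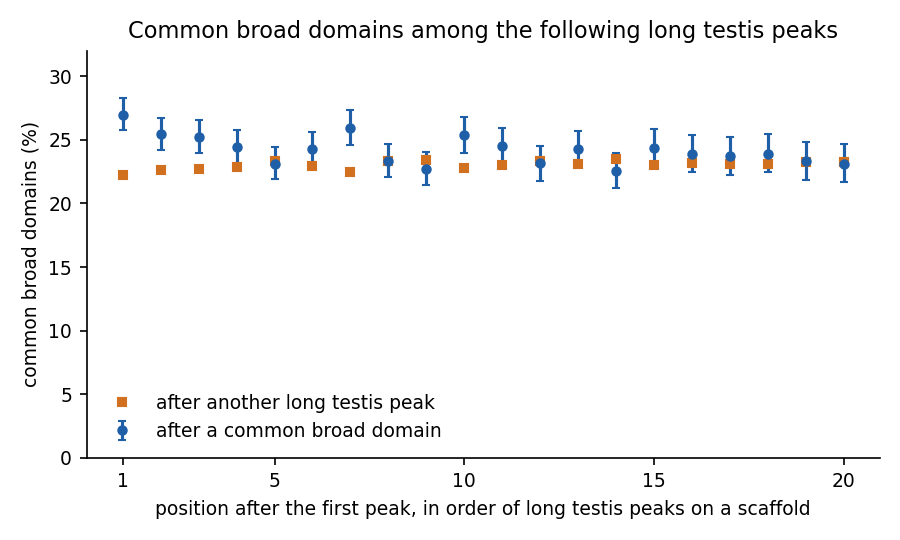
Share of common broad domains (y axis, %) among the long testis peaks at each position after a first peak (x axis, in order along a scaffold), after a common domain (circles, with 95% Wilson intervals) and after another long testis peak (squares). The shares are 27.0% and 22.3% at the next peak and 23.1% and 23.3% at the twentieth.

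Of the 4870 common domains, 2693 had no common domain directly before or after them in that order. Since 76.6% of the long testis peaks were not members, many single members follow from that share alone. Counts of runs and chains also depend on it and are given as a description, without a random order beside them. There were 653 runs of 2, 182 of 3, 46 of 4, 16 of 5, 9 of 6 and 1 of 7. When members with gaps of up to 10 kb were joined to chains, 1402 of the 4870 belonged to 632 chains, of which 523 held 2 members, 87 held 3 and 22 held at least 4. The largest chains held 6 members. One lay on scaffold166.1 from 1035655 to 1071452 and the other on scaffold411.1 from 156192 to 189316, and neither stretch held a long testis peak that was not a member.

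On scaffold166.1 the 6 members were 1858 to 2624 bp long in testis and 1883 to 3970 bp in ovary, with gaps of 1791 to 6724 bp. Testis peaks covered 50.8% of the 35798 bp of this chain and ovary peaks 55.7%. The member from 1048426 to 1050612, had a Jaccard index of 0.995, while the next one, from 1052404 to 1054844, lay within an ovary peak of 3970 bp that began 1490 bp before it and had an index of 0.615. On scaffold411.1 the testis peaks of the 6 members were 1756 to 2290 bp long and the ovary peaks 1967 to 2637 bp, with gaps of 1026 to 8790 bp and indices from 0.716 to 0.955. Testis and ovary peaks covered 48.0% and 48.2% of its 33125 bp. Both chains were chosen for their members and begin and end with a member, so high covered shares are favored by this choice.

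The domains lay on 480 of the 3378 scaffolds with peaks in either list, and 78 scaffolds held 50% of them. Scaffolds spanning at least 500000 bp up to their last peak numbered 330 and held 4401 of the domains. Their density had a median of 7.15 domains per Mb, quartiles of 4.56 and 9.57 and a maximum of 26.5. The number of domains followed the number of long testis peaks, with a Spearman rho of 0.79 between both densities over the 326 of these scaffolds that had peaks in both lists, where members are counted among the long peaks. The scaffolds with most domains were scaffold18.1 with 82, scaffold3.1 with 70 and scaffold2.1 with 66. All 3 are among the long ones, and common domains made up 20.4%, 18.8% and 20.6% of their long testis peaks.

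**Figure D5:**
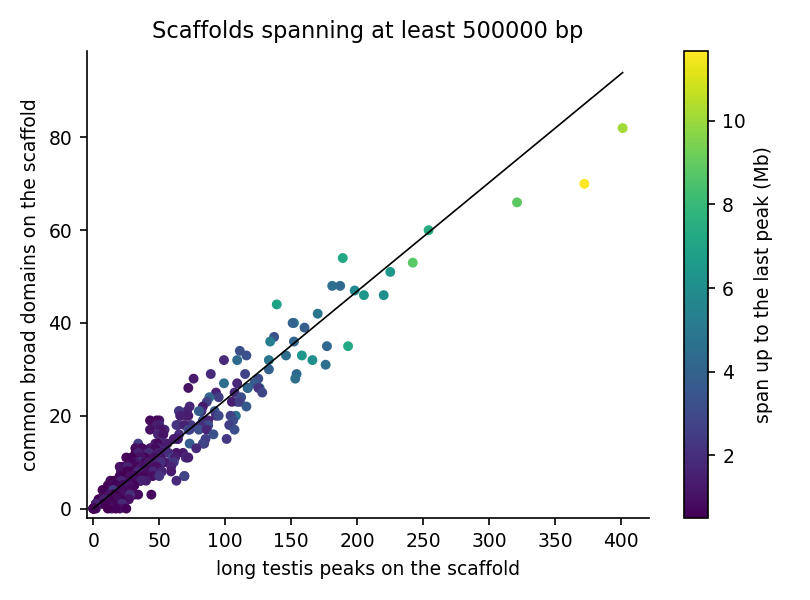
Number of common broad domains (y axis) against the number of long testis peaks (x axis) on each of the 330 scaffolds spanning at least 500000 bp, colored by span in Mb. The line marks the overall share of 23.4%, and points lie on both sides of it.

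Among these 330 scaffolds, the highest densities were found on 3 of under 1 Mb. Scaffold354.1 had 26.5 domains per Mb, 19 in all, among 48 long testis peaks. Scaffold245.1 had 26.1 per Mb, 19 in all, among 43. Scaffold277.1 had 26.1 per Mb, 26 in all, among 72, with testis lengths from 1502 to 4767 bp and gaps from 1174 to 134900 bp. These scaffolds were rich in long testis peaks as a whole, with 59.1 to 72.2 per Mb against a median of 31.6. The share of common domains among them was also high, from 36.1% to 44.2%. Both traits are favored by the choice of these scaffolds for their density of domains.

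No common domain was found on 11 of the 330 scaffolds, and 4 of these lacked peaks in 1 list. The 3 with the largest span had peaks in both. Scaffold109.1 had 14 long testis and 26 long ovary peaks, scaffold163.1 had 20 and 1, and scaffold404.1 had 2 and 4. At the first of these, none of the long testis peaks met the rule. As the rule also leaves out testis peaks that overlap several ovary peaks, this does not show that the long peaks there lay apart. Over the 135 scaffolds with at least 50 long testis peaks, the share of common domains had a median of 22.6%, quartiles of 19.2% and 26.6%, and ran from 9.52% on scaffold57.1 to 38.0% on scaffold142.1. Scaffold115.1, which held the best matching pair among members of at least 3000 bp, had the next lowest share, 10.1%, as did scaffold24.1 with the same 7 of 69.

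The deposited score has no stated meaning and was read as a rank within its own list. Common domains did not score high. Their median was 0.943 in testis, where that of the list was 0.966, and 0.943 in ovary, where that of the list was 0.971. In testis 54.7% (interval 53.3% to 56.1%) scored below the list median, against 56.8% of the other long testis peaks, and in ovary 56.3% against 57.1% of the other long ovary peaks. The 5% of highest scores of each list held 116 common domains in testis (2.38%) and 120 in ovary (2.46%), and 44 were in both. Of the other long peaks, 1.97% in testis and 2.07% in ovary were among these scores, so the low share was not particular to common domains. The testis scores of the members had no relation to their length, with a Spearman rho of 0.00, and a weak one to the ovary scores, with a rho of 0.23 over the 4870 domains.

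A pair of domains with high scores in both lists was looked up after their values had been seen. One on scaffold311.1 from 19880 to 21616 had scores of 18.6 in testis and 11.9 in ovary, and the other on scaffold169.1 from 36595 to 39048 had 12.2 and 12.3. The latter had no other peak within 10 kb in either list, and its edges differed by 9 and 83 bp between the tissues.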

How the data were processed

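Members and measures were chosen with earlier results of these data known. According to the study, chromatin of gonads was digested, sonicated and immunoprecipitated, and quality-filtered reads were mapped to an NCBI genome. The submitters' processing notes name MACS 1.4.2. The genome build, the aligner, the calling threshold, whether IgG served as control, and the number of animals per sample were not given in the sources used here. MACS estimates the background of a candidate from its surroundings as well, so calls near a broad peak are not independent of it. Its effect on the flanks and on the distances between peaks was not tested.

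Each tissue has 1 deposited list that gives the position of each peak and a score of unstated meaning. Covered shares are pooled bases in profiles and bands, and means over domains otherwise. Flanks ended at the scaffold start and at its last peak in either list. The bands, and ovary flanks from ovary edges, were chosen after the profiles had been seen. The named domains and scaffolds were those ranked first by shorter length, Jaccard index from 3000 bp, number, density and chain size, with ties among scaffolds broken by span. Analyses used matplotlib 3.10.9, scipy 1.17.1, pandas 2.3.3 and numpy 2.4.6 under Python 3.11.15 and were tested on simulated lists. Alternatives changed the lengths, the overlap, the number of peaks allowed, the scores, the scaffolds and the flanks.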

Additional observations from a re-analysis of the deposited data

How the results depend on the processing

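No paired analysis was possible because each tissue had 1 sample. Depth is not known and limits every value, as sequence outside peaks may have had too few reads. With the 4870 domains, the number was 10959 from 1000 bp, 2253 from 2000 bp, 2862 with 80% overlap and 1370 when the 50% of peaks that scored highest were used. The first of these admits more peaks by construction, and the length of 2000 bp and the overlap of 80% admit fewer pairs. With high scores fewer peaks entered, but a testis peak with several ovary peaks can then keep 1 and become a member. The number in that setting is thus not set by construction. The number stayed within 1.5 times in the other 5 settings. The ovary peak was longer in 64.3% of domains, in 62.0% from 1000 bp, 66.1% with 30% and 54.2% with 80% overlap, 48.3% when further ovary peaks could overlap, 51.5% with exactly 1 peak in each list and 57.7% with high scores. The share of domains after a domain exceeded that after other long peaks by 4.73 points, by 2.14 from 2000 bp and by 7.25 when further ovary peaks could overlap. Testis peaks covered 34.3% of the flanks, and 32.8% from 2000 bp, 20.6% with high scores, 26.9% at 2 kb, 29.96% at 5 kb, 22.8% without long peaks and 30.8% around domains of 3000 bp and over. The share of domains that scored under the list median moved little in all 8 settings run. In testis, flanks of common domains minus others were -0.48 points, and 0.54 from 1000 bp, 1.05 with high scores, 0.0565 at 20 kb, 0.14 at 50 kb and 0.25 from 1500 to under 2000 bp. In ovary this was 1.64 points, and -0.35 at 2 kb, -0.38 at 5 kb, -1.16 without long peaks and -0.23 from 3000 bp. The far band exceeded the near band in every setting run, by 3.57 to 20.2 points in testis and 3.58 to 19.0 in ovary, and by more than around other long peaks. As the bands were placed on profiles of these same lists, this sign is a description and not a check. For shifts that are not set by construction, the cause was not tested.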
